A study of Mus musculus with 2 samples.

Results

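The cells described here are granulocyte-monocyte progenitors in the sense of a gate on azurophil protease transcripts. They were selected on measured values, the summed UMIs of Mpo, Elane, Prtn3 and Ctsg at 50 or more per 10000 UMIs of the cell, with the summed UMIs of S100a8, S100a9, Ngp, Camp and Ltf under 100 per 10000 so that maturing neutrophils stay out. The gate held 1452 of 18031 cells with more than 200 genes and under 10% mitochondrial UMIs. Of these, 1365 came from the WT library and 87 from the cKO library.

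The study asked what Trmt6, a subunit of the enzyme that methylates adenosine in tRNAs, does in blood stem and progenitor cells. Bone marrow of 3-month-old mice on a C57BL/6 background was depleted of lineage-positive cells and sorted for c-Kit and Sca-1 (LSK cells), and 1 droplet library of 3′ transcript ends was made for each genotype. The labels give the WT library the genotype Trmt6fl/fl and the cKO library Trmt6fl/fl, MX1-cre. A figure legend of the study instead describes Mx1-Cre and repeated pIpC injections in both, with Trmt6+/+ as the control allele. The study's methods name Trmt6fl/+ with Mx1-Cre and Trmt6fl/fl with Mx1-Cre. Mx1-Cre is driven by an interferon-inducible promoter, which pIpC switches on in many tissues and not in blood cells alone, and how many animals went into each library is not given in the sources used here. With 1 library per genotype no comparison between the genotypes could be tested. Levels come from adding up the UMIs of a group of cells within 1 library and scaling the sum to 1000000 UMIs (CPM), ratios are log2 of cKO over WT, and the 95% intervals printed with them cover counting error only, not differences between animals or libraries.

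Granulocyte-monocyte progenitors give rise to neutrophils and to monocytes. Early in this stage the cells switch on the serine proteases neutrophil elastase (Elane), proteinase 3 (Prtn3) and cathepsin G (Ctsg) and the peroxidase Mpo, which are packed into the azurophil, or primary, granules. CEBPA and PU.1 (Spi1) open the myeloid program, GFI1 and CEBPE favour the neutrophil branch, and IRF8 favours the monocyte branch. By convention these progenitors are sorted as c-Kit-positive and Sca-1-negative, so the cells studied here are those with a protease program among cells sorted as Sca-1-positive. Ly6a, which encodes Sca-1, had 12.2 CPM in the WT members and 27.7 in the cKO members, against 43.1 and 144 CPM in the other cells.

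The cKO library was the deeper of the pair, with 98323201 UMIs on 9260 barcodes against 47991455 UMIs on 8869 barcodes in WT, and 24 barcode strings occurred in both. Gated cells had a median of 9587 UMIs in WT and 17601 in cKO. At 2000 UMIs per cell they showed a median of 986 and 979.5 genes, so the number of genes per cell was alike once depth was equal. T and NK-like cells, which should lack granule proteases, showed how much free RNA reached other droplets: their median protease level was 7.77 per 10000 in WT (20 cells) and 0 in cKO (74 cells), both below the gate. A doublet score marked 133 WT and 2 cKO gated cells, 9.74% and 2.3% of them, and these cells were kept in the values below.

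The gate took 15.5% of the WT cells (14.7 to 16.3, Clopper-Pearson) and 0.944% of the cKO cells (0.757 to 1.16), a ratio of 16.4. This share is a description of what the gate selected. The members reached down to 50 per 10000 in WT and 51 in cKO, and the highest cells outside stood at 49.9 and 49.8. Within 5 per 10000 of the limit there were 162 WT and 8 cKO cells below and 133 WT and 9 cKO cells above, so the gate cuts a range and not a separate cluster. The median protease level of the members was 99.7 per 10000 in WT and 80.6 in cKO, and the highest cell reached 925 and 634. A further 25 WT cells and 0 cKO cells had the protease level but were left out as maturing neutrophils. With each cell thinned to 2000 UMIs before gating the shares were 17.5% and 1.23%, so the order of the libraries was the same at equal depth.

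**Figure D1:**
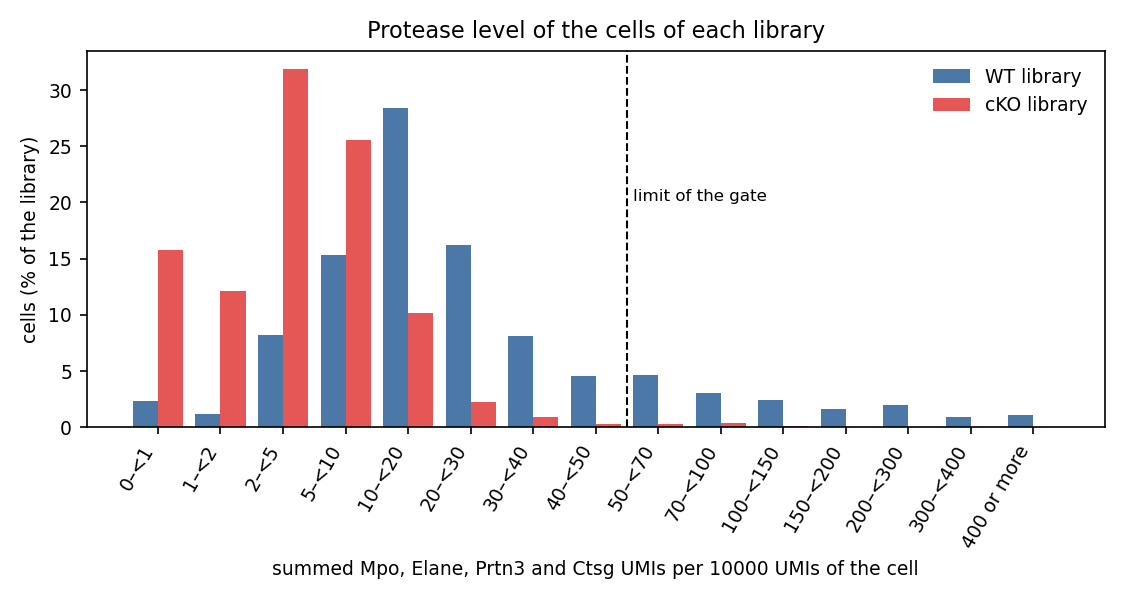
The share of each library's cells (vertical axis, percent) is plotted by the summed Mpo, Elane, Prtn3 and Ctsg UMIs per 10000 UMIs (horizontal axis, ranges of unequal width), for WT and cKO. Most cKO cells lie under 10 per 10000 and most WT cells between 5 and 40, and the dashed line marks the limit of 50. The ranges to the right of it also hold the 25 WT cells left out as maturing neutrophils.

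The 4 proteases stood in another proportion in each library. Mpo stood at 6519 CPM in WT and 4015 in cKO, Elane at 5566 and 2495, and Prtn3 at 3471 and 2599, whereas Ctsg stood at 2666 CPM in WT and 4173 in cKO. In the cKO library 25% of the Elane UMIs came from 1 cell. In 784 WT members Mpo had the most UMIs of the 4, in 281 Prtn3, in 247 Elane and in 53 Ctsg. In cKO the leading protease was Ctsg in 53 of 87 cells (60.9%, 49.9 to 71.2), Mpo in 21, Elane in 7 and Prtn3 in 6. Set against all cells of the library, cells led by Ctsg were 0.601% of WT (0.451 to 0.786) and 0.575% of cKO (0.431 to 0.752). Cells led by one of the other proteases were 14.9% of WT (14.1 to 15.6) and 0.369% of cKO (0.256 to 0.515). These counts come from the genes of the gate and describe its content, and the grouping by leading protease was made after the values were seen.

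**Figure D2:**
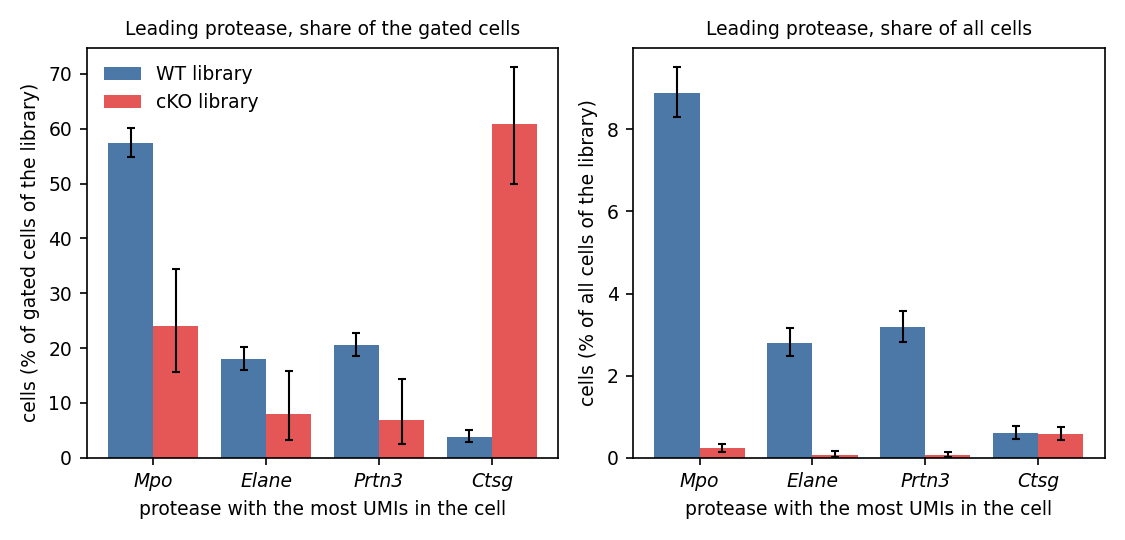
Bars give the share of cells (percent) in which each protease had the most UMIs, among the gated cells on the left and among all cells of the library on the right, with Clopper-Pearson intervals. Ctsg leads in 60.9% of cKO and 3.88% of WT members, while its share of all cells is 0.575% and 0.601%.

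The protease genes of the gate lie on chromosomes 11 (Mpo), 10 (Elane and Prtn3, adjacent) and 14 (Ctsg) of GRCm38. The label was checked against Ms4a3, a membrane protein of granulocyte-monocyte progenitors that the gate did not use. Ms4a3 reached 448 CPM (437 to 459) among WT members and 571 (535 to 609.8) among cKO members, against 43.1 and 9.56 CPM in the other cells. With cells thinned to 2000 UMIs, 30.8% of WT members (28.3 to 33.3) and 51.2% of cKO members (40.1 to 62.1) had an Ms4a3 UMI, compared with 5.56% and 1.33% of the other cells and with 0 of 17 and 1 of 31 T and NK-like cells. Without thinning the shares of members were 51.8% and 81.6%. Ms4a3 was not equally high in all members: in cKO it stood at 913 CPM in the cells led by Mpo, Elane or Prtn3 and at 312 CPM in those led by Ctsg, and in WT at 459 and 63.8 CPM. Elane was at 151 CPM in the cKO cells led by Ctsg and at 5581 CPM in the other cKO members. The cells led by Ctsg passed the gate through Ctsg, Mpo and Prtn3 with little Elane, and they are called by that leading gene below. Whether these cells, most of the cKO members, are granulocyte-monocyte progenitors or other progenitors with Ctsg could not be settled from these data, and every cKO value over all members includes them.

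Of 2 basophil genes Prss34 was read in few WT members and Mcpt8 in many. Mcpt8, a protease of basophils, stood at 1710.2 CPM in the WT cells led by Ctsg and at 181 CPM in the other WT members, with a UMI in 39 of 53 and 616 of 1312 cells. Prss34, another basophil protease, was at 1891 and 92.3 CPM, but only 1 of the 53 cells led by Ctsg and 17 of the 1312 others had a UMI, so its level in the former is that of 1 cell. In cKO, Mcpt8 stood at 224 CPM in the cells led by Ctsg and at 109.5 CPM in the other members, and no Prss34 UMI was seen in any of them. The whole list of mast cell, basophil and eosinophil genes summed to 566 CPM in WT and 283 in cKO members, with 13 and 8 of its 18 genes detected. Cma1, Mcpt1, Mcpt4, Tpsab1 and Tpsb2 had no UMI in either. Cpa3 of the same list was at 168 CPM in WT cells led by Ctsg and 77.6 CPM in the other WT members, and at 57.7 and 14.6 CPM in cKO. Gata2 was at 25.5 and 19.6 CPM in WT and at 38.8 and 14.6 CPM in cKO. Of 1365 WT members 20 reached 20 per 10000 in the summed mast cell, basophil and eosinophil genes, 2 of them led by Ctsg, and of 87 cKO members 1 did. Without these cells the log2 ratio of Mcpt8 turned from -0.36 to 0.54, so few cells hold much of its WT UMIs. How far the 1710.2 CPM of Mcpt8 in the WT cells led by Ctsg rests on 2 cells was not tested.

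Across all genes the gated cells of the 2 libraries differed in a limited set. Of 5307 genes that reached 20 CPM in either library, outside the 9 genes of the gate, 122 were at least 2-fold higher in cKO (2.3%) and 147 at least 2-fold lower (2.77%). The median log2 ratio over all of them was 0.02, and 52.2% of them lay above 0, the share beside which counts above 0 in a list stand. In the other cells of the libraries the shares were 2.39% and 4.79%, and in cells just below the gate, at 20 to under 50 protease UMIs per 10000, 3.04% and 5.78%. The counting interval lay wholly above 0 for 21.6% of the genes and wholly below 0 for 20.6%, which measures the depth of the sums and not a difference between genotypes. In a bulk-like sum over cells, fewer cells of a type and less RNA per cell cannot be told apart.

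**Figure D3:**
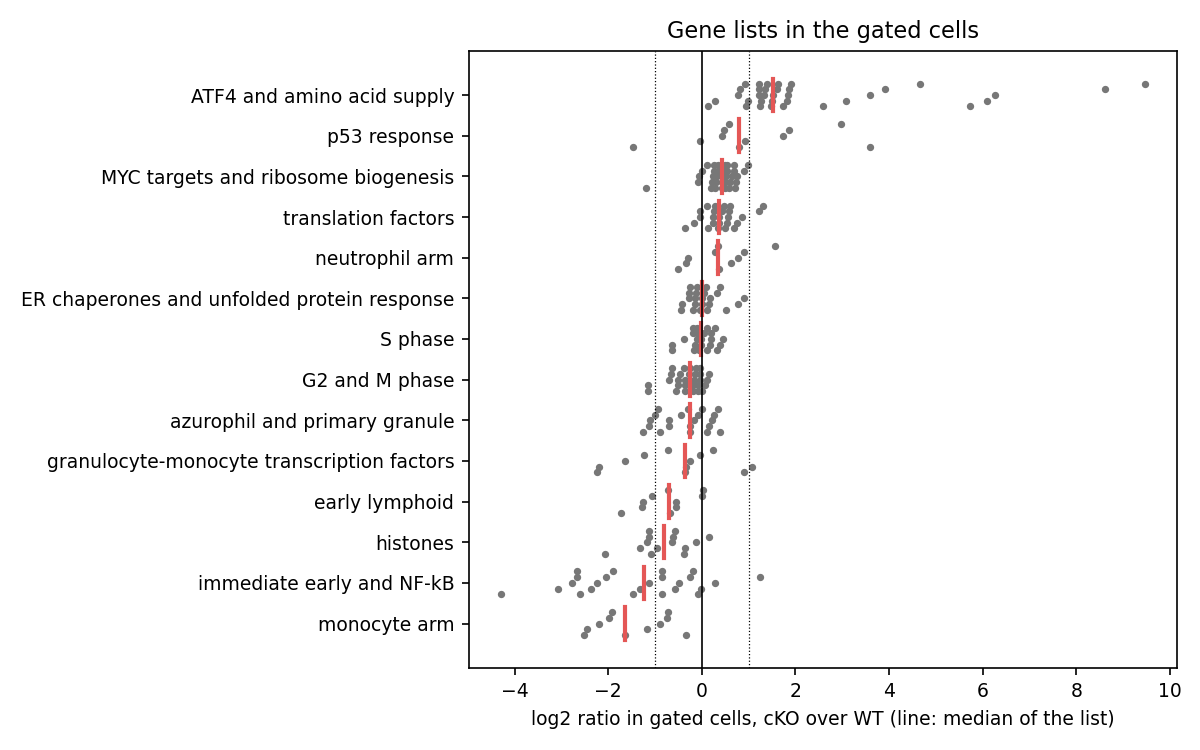
Each point is a gene of a list (rows) at its log2 ratio of cKO over WT in the gated cells, the thick line is the list's median, and dotted lines mark 2-fold. Of the lists drawn, which leave out those with few measured genes and others, the ATF4 and amino acid list lies furthest right with a median of 1.53 and the monocyte arm furthest left with a median of -1.65. The point at 9.46 is Slc7a3, which had no UMI in WT members, so its place depends on the prior count.

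The neutrophil and monocyte arms of the progenitors stood differently. All 11 measured genes of the monocyte arm were lower in cKO and 7 of them at least 2-fold, with a median log2 ratio of -1.65. In the other cells of the libraries the median of the monocyte arm was -2.06, with 8 genes at least 2-fold lower, so the arm was lower in cKO there too. Of 10 measured genes of the neutrophil arm 7 were higher and 3 lower, beside 52.2% of all measured genes above 0. In this arm 1 gene was at least 2-fold higher, and the median was 0.36, against -0.83 in the other cells. The median of the neutrophil arm was near 0 on the other side when the gate was set at 30 per 10000 (-0.1), in cells called G1 (-0.03) and for genes at 50 CPM or more (-0.01), and it was 0.98 in cells led by Mpo, Elane or Prtn3 and 0.93 in cells led by Ctsg. That of the monocyte arm was -1.15 and -0.68 in those subsets. Summed, the neutrophil arm stood at 1973 CPM in WT and 2080.3 in cKO, and the monocyte arm at 1724 and 638 CPM, so that the ratio of the arms was 1.14 in WT and 3.26 in cKO. The monocyte sum exceeded the neutrophil sum in 559 of 1365 WT members (41%, 38.3 to 43.6) and in 11 of 87 cKO members (12.6%, 6.48 to 21.5).

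Irf8 (chromosome 8, 120736358 to 120756694, plus strand, GRCm38, protein-coding) encodes the transcription factor of the monocyte branch. It had 265 CPM in WT (257 to 274) and 58 in cKO (46.8 to 71.1), a log2 ratio of -2.19 (-2.51 to -1.89). An Irf8 UMI was seen in 33.4% of WT members (30.9 to 36) and 9.3% of cKO members (4.1 to 17.5) at equal depth. The other cells showed it in 14.3% of WT and 2.19% of cKO (1.89 to 2.51), and the T and NK-like cells, which may express the gene themselves, in 4 of 17 and 4 of 31. F13a1, the coagulation factor subunit made by monocytes, was at 169 and 42.2 CPM (-1.99, -2.37 to -1.65), and it was read in 17.7% and 3.49% of the thinned members against 0 of the T and NK-like cells. The receptor for macrophage colony-stimulating factor, Csf1r, was at 27.2 and 4.41 CPM, the latter resting on 7 UMIs (-2.52, -3.95 to -1.57). Ly86, the partner of a Toll-like receptor homologue, was at 106 and 18.9 CPM (-2.46), and Ms4a6c at 305 and 80.1 CPM (-1.93). Zeb2, a transcription factor of monocytes and dendritic cells, was at 76 and 24 CPM (-1.65).

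The remaining monocyte-arm genes lay closer together. Ly6c2, the Ly6C antigen, stood at 298 and 160.2 CPM (-0.89), Psap at 229.9 and 136 CPM (-0.75), and Ccr2, the chemokine receptor by which monocytes leave the marrow, at 27.7 and 16.4 CPM (-0.73). Ccr2 turned to 0.43 in cells called G1 and 0.12 with cells thinned. Slpi, an inhibitor of elastase and cathepsin G, was at 150.1 and 66.2 CPM (-1.17). Ctss had a log2 ratio of -0.33 with an interval that reached 0 (-0.82 to 0.09). Where the members were split by leading protease, F13a1 was lower in cKO among the cells led by Mpo, Elane or Prtn3, at 48.2 against 173 CPM, and higher among those led by Ctsg, at 37.7 against 23 CPM. In cells called G1 the ratio of F13a1 was -0.12. Ly6c2 was not lower in cKO in either subset by leading protease, at 319.9 against 307 CPM in cells led by Mpo, Elane or Prtn3 and 38.8 against 15.3 CPM in cells led by Ctsg, so its ratio over all members moves with the mix of leading proteases. Slpi turned as well in the cells led by Ctsg, to a ratio of 0.2. Irf8 was lower in both, at 51.1 against 269 CPM and 63.3 against 153 CPM.

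On the neutrophil side Trem3, a receptor of myeloid cells that pairs with DAP12, showed the largest ratio. It lies on chromosome 17, 48247777 to 48258841, plus strand. Trem3 was at 54.1 CPM in WT (50.3 to 58.1) and 159 in cKO (139.9 to 179.8), a log2 ratio of 1.56 (1.34 to 1.76), and 7.86% and 25.6% of thinned members had a UMI while no T or NK-like cell did. Gfi1, the repressor that favours granulocytes, was at 23.6 and 44.1 CPM (0.91, 0.51 to 1.28), Ltb4r1, a leukotriene B4 receptor, at 20.7 and 35.3 CPM (0.78), and Dmkn at 25.4 and 39.1 CPM (0.63). In cells called G1 the ratio was 0.12 for Gfi1 and -0.02 for Dmkn. Outside the gate Gfi1 was higher in cKO as well, at 14.8 and 39.5 CPM in the other cells. Ms4a3 (0.35), Gstm1 (0.27) and Mgst2 (0.36, -0.07 to 0.75) lay nearer to 0. Alas1, the first enzyme of haem synthesis, was at 308 and 214 CPM (-0.52), and Nkg7 at 715 and 585 CPM (-0.29). Cebpe, which drives the step from promyelocyte to later neutrophils, stood at 55.4 and 43.5 CPM (-0.34, -0.73 to 0.01), and 30.4% of its cKO UMIs came from 1 cell. The direction of Cebpe turned within the subsets, with 81.8 CPM in cKO against 56.9 in WT for cells led by Mpo, Elane or Prtn3 and 14.4 against 5.11 for cells led by Ctsg, and its ratio was 1.49 in cells at 50 to under 100 protease UMIs per 10000. Alas1 turned likewise, to 0.2 in cells led by Mpo, Elane or Prtn3 and 0.24 in those led by Ctsg, and Nkg7 to 0.31 in the first of these subsets. The neutrophil arm was higher in cKO in both subsets by leading protease: its sum was 3231 against 2001 CPM in cells led by Mpo, Elane or Prtn3 and 1206 against 993 CPM in cells led by Ctsg.

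**Figure D4:**
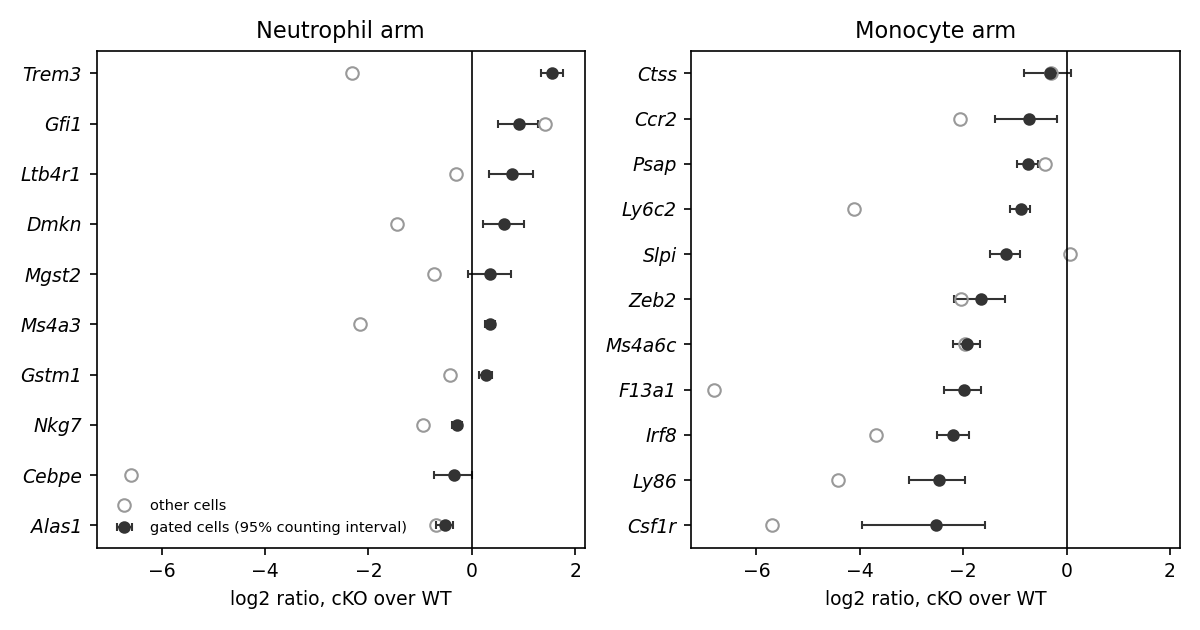
Log2 ratios of cKO over WT (horizontal axis) are shown for each measured gene of the neutrophil arm (left) and the monocyte arm (right), filled with 95% counting intervals for the gated cells and open for the other cells. Monocyte-arm genes lie left of 0 in the gated cells, and Trem3, Gfi1, Ltb4r1 and Dmkn lie right of it.

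The split between the arms was seen at matched protease levels. At 50 to under 100 per 10000 the neutrophil arm stood at 821 CPM in 683 WT cells and 1167 CPM in 62 cKO cells, and the monocyte arm at 1439 and 549 CPM. At 100 to under 200 the monocyte arm was at 2054 and 783 CPM, and at 200 to under 400 at 1843 and 887 CPM, the cKO values resting on 14 and 9 cells. Ms4a3 was higher at higher protease levels in both libraries, from 63.9 CPM at 50 to under 100 to 1930 CPM at 400 or more in WT and from 281 to 2755 CPM in cKO, where the last range held 2 cells. Cebpe did likewise, from 5.5 to 251 CPM in WT and from 15.3 to 348 CPM in cKO. Irf8 was highest at 100 to under 200 in WT, at 311 CPM, and lay at 104 CPM at 400 or more. In cKO it was 77.5 CPM at 100 to under 200 and 9.91 CPM at 200 to under 400.

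**Figure D5:**
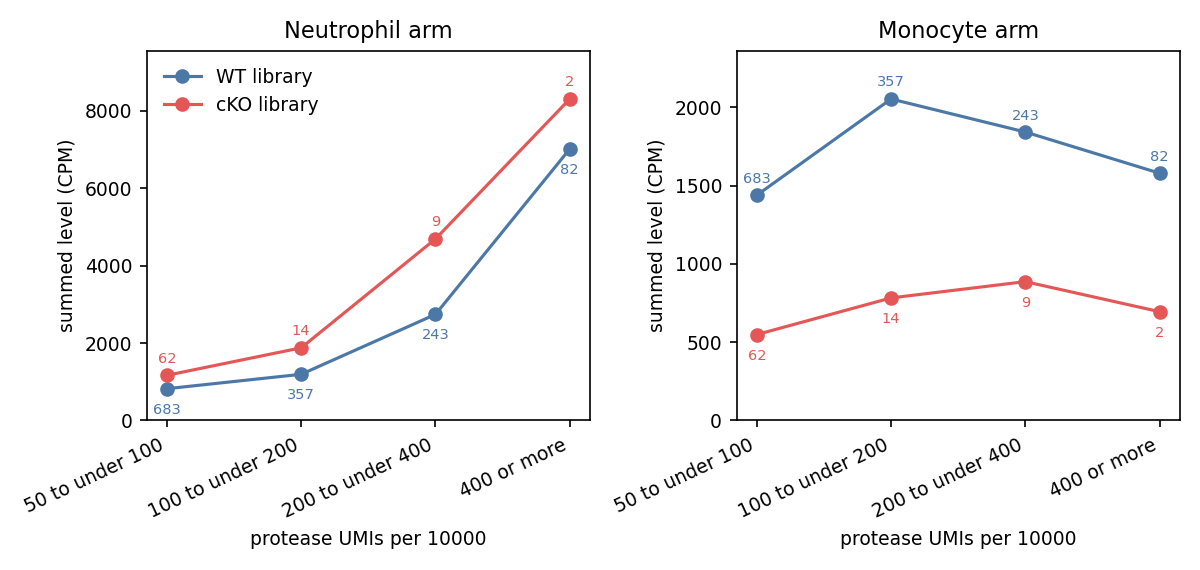
Summed levels (CPM) of the neutrophil-arm genes (left) and the monocyte-arm genes (right) are plotted by range of the protease level for both libraries, with the number of cells beside each point. The neutrophil arm is higher in each next range in both libraries, and the monocyte arm of cKO stays between 549 and 887 CPM while that of WT stays between 1439 and 2054 CPM.

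Among 12 measured transcription factors of the granulocyte-monocyte stage, 4 were at least 2-fold lower in cKO and 1 at least 2-fold higher. Beside Irf8 and Zeb2 these were Egr1, at 36.9 and 7.57 CPM (-2.23), and Runx1, a factor of definitive haematopoiesis, at 54.3 and 22.7 CPM (-1.24). Cebpb, which drives emergency granulopoiesis, had 118 CPM in WT (112 to 124) and 249.7 in cKO (226 to 276), a log2 ratio of 1.08, which was 0.88 with the gate at 30 per 10000. The ratio of Egr1 was -0.83 with cells thinned and that of Runx1 -0.94 in cells called G1. Cebpa (0.24, -0.21 to 0.64) and Etv6 (-0.05) had intervals that held 0. Spi1, which encodes PU.1, was at 258 and 199.9 CPM (-0.37, -0.54 to -0.2), and Myb at 187 and 155 CPM (-0.26).

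Of 12 measured cytokine and Fc receptors 8 were below 0 with a median of -0.33, none was at least 2-fold higher and 3 were at least 2-fold lower, Csf1r, Kit (49.7 and 21.4 CPM, -1.19) and Il6ra (30.4 and 14.5 CPM, -1.04). With the gate at 100 per 10000 Kit and Il6ra no longer passed 2-fold (-0.6 and -0.63). Csf3r, the receptor for granulocyte colony-stimulating factor, stood at 29.8 and 42.9 CPM (0.53, 0.13 to 0.9), and Csf2ra and Csf2rb, the chains of the receptor for granulocyte-macrophage colony-stimulating factor, had log2 ratios of 0.25 and 0.2 with intervals that held 0. Fcgr3, the low-affinity Fc receptor by which these progenitors are sorted, was at 65 and 42.2 CPM (-0.61) over all members. Within ranges of the protease level Fcgr3 was higher in cKO at 50 to under 100 per 10000, with 18.1 against 6.63 CPM (1.47), and at 100 to under 200, with 54.3 against 25.7 CPM. At 200 to under 400 it was at 129 CPM in cKO (84.2 to 189) and 107 in WT (95.9 to 118). Only at 400 or more was it lower, with 103 against 313 CPM, where cKO held 2 cells and 8 Fcgr3 UMIs.

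Beyond the gate's own genes, the primary granule list of 21 measured genes had 4 at least 2-fold lower, none at least 2-fold higher, and a median of -0.26. Lyz2, lysozyme, stood at 299 and 139 CPM (-1.1), Hp, haptoglobin, at 123 and 55.5 CPM (-1.14), Hexa, a lysosomal hexosaminidase, at 166 and 82 CPM (-1.01), and Tifab at 42.6 and 17.7 CPM (-1.25). Serpinb1a, the intracellular inhibitor of elastase, cathepsin G and proteinase 3, was at 533 and 699 CPM (0.39, 0.3 to 0.48), and Prss57, a further azurophil protease, at 133 and 153 CPM (0.21). Ctsc, which activates the granule proteases, had a ratio of 0.16 with an interval that held 0. Plac8, an abundant transcript of early myeloid cells, was at 4199 and 2584 CPM (-0.7). Clec12a and Igsf6 were at 246 and 132 CPM and at 100.4 and 52.3 CPM. Several of these ratios were smaller in cells led by Mpo, Elane or Prtn3, with -0.37 for Hp, -0.48 for Tifab, -0.74 for Hexa, -0.17 for Clec12a and 0.0 for Igsf6. Of the list for serine protease inhibitors and their partners 6 genes were measured, with a median of 0.03.

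Specific granules are filled after the azurophil ones, and outside the genes of the gate only 4 of the 20 genes on their list reached the level. The gate genes Ngp and Camp of this list reached it in WT, at 28.1 and 21.2 CPM, and are left out of that count and of the list's median. Lcn2, lipocalin 2, which withholds iron from bacteria, had 7.95 CPM in WT (6.53 to 9.58) and 113 in cKO (96.9 to 131), a log2 ratio of 3.83 (3.48 to 4.18). With cells thinned to 2000 UMIs, 1.54% of WT members (0.958 to 2.35) and 11.6% of cKO members (5.72 to 20.3) had an Lcn2 UMI, and no T or NK-like cell did. With the 25 maturing WT cells put back, the ratio of Lcn2 was 2.68. In the other cells the order was the reverse, at 73.3 and 4.58 CPM (-4). Of the later granule genes, Camp, Ltf and Ngp, which belong to the gate, had no UMI in cKO members, and neither did Mmp8, Cd177, Retnlg and Olfm4, which allows up to 2.33 CPM each and lies above the WT level of Ltf, Cd177, Retnlg and Olfm4. Adam8 had no UMI in cKO members either, and its WT level of 0.217 CPM is under the same limit. Lcn2 was not higher at higher protease levels in cKO, at 122 CPM at 50 to under 100 and 84.3 CPM at 200 to under 400. Wfdc21 was at 7.95 and 34.7 CPM (2.13), with 43.6% of the cKO UMIs in 1 cell, and its direction depended on the choice of cells.

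The list for ATF4, the transcription factor that answers amino acid shortage and other stress acting on translation initiation, was higher in cKO throughout. All 35 measured members had a ratio above 0, 28 were at least 2-fold higher, and the median was 1.53. In the other cells of the libraries the median of the same list was 1.6 with 31 genes at least 2-fold higher, so the difference was as large in the rest of the libraries. Per cell the summed list had a median of 16.7 per 10000 in WT and 47.7 in cKO, and 27.2% of WT and 96.6% of cKO members reached 20 per 10000. The summed list stood at 5239 CPM in cKO cells led by Ctsg and at 4274 CPM in the other cKO members, against 1689.8 and 1764 CPM in WT.

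The promoters of the list were searched for a short element. ATF4 binds as a dimer with CEBP factors to a composite element, searched here as TGATGNAAN on both strands from 250 bases before to 50 bases after each RefSeq start. It was found for 8 of the 26 list genes with a promoter in the table (30.8%), against 1215 of all 27025 genes (4.5%), 0 of 17 immediate early and NF-kB genes and 0 of 10 monocyte-arm genes. The matches of 4 list genes that differed strongly in the gated cells are shown 5′ to 3′ along the gene's strand, with the element in capitals (build GRCm38.p6).
Asns, 23 bases before the start, minus strand of chromosome 6, 7693214 to 7693242: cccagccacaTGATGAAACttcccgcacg
Trib3, 13 bases after the start, minus strand of chromosome 2, 152344029 to 152344057: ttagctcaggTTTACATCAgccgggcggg
Nupr1, 111 bases before the start, minus strand of chromosome 7, 126625563 to 126625591: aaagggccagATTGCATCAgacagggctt
Gars, 31 bases before the start, plus strand of chromosome 6, 55037960 to 55037988: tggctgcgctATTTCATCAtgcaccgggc
In Asns the element runs along the gene's strand, and in the other shown genes along the opposite one. Positions are relative to the RefSeq start used. By the GENCODE gene bounds the Asns and Nupr1 matches lie inside the gene and the Trib3 match just outside it. The list was chosen for ATF4, so a higher share of matches is no independent evidence. A match of letters is a description and not a bound site.

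Trib3, a pseudokinase that dampens ATF4 signalling, had 4 UMIs in all 1365 WT members and 203 in the 87 cKO members, 0.289 and 128 CPM (8.62, 7.41 to 10.68). Nupr1, a small stress protein, stood at 1.59 and 112 CPM (6.1, 5.49 to 6.84) and Asns, asparagine synthetase, at 13.4 and 201 CPM (3.91, 3.65 to 4.18). Gars, the glycyl-tRNA synthetase, was at 56.7 and 172 CPM (1.6). At equal depth an Asns UMI was read in 1.98% of WT and 31.4% of cKO members, and a Trib3 UMI in 0.147% and 24.4%. In T and NK-like cells the cKO shares were 4 of 31 for Asns and 1 of 31 for Trib3, and the WT shares were 0 of 17. Ratios of Trib3 and Nupr1 were larger in the gated than in the other cells, by 2.83 (1.45 to 4.2) and 2.51 (1.87 to 3.15) on the log2 scale by counting error. Their WT levels were 0.289 and 1.59 CPM in the gated and 2.84 and 21 CPM in the other cells. For Asns the difference was -0.36.

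The list reaches across amino acid uptake, synthesis and loading onto tRNA. Atf4 itself stood at 66.5 and 220.1 CPM (1.73), Atf5 at 2.39 and 61.2 CPM (4.67) and Ddit3, which encodes CHOP, at 12.6 and 107 CPM (3.08). Of the serine and one-carbon enzymes, Phgdh was at 282 and 495 CPM (0.81), Psat1 at 70.8 and 205 CPM (1.53), Psph at 44.4 and 137 CPM (1.63), Shmt2 at 95.9 and 243 CPM (1.34) and Mthfd2 at 35.8 and 215 CPM (2.59). The transporter chains Slc7a5 and Slc3a2 had ratios of 1.81 and 1.49. Slc7a3, a cationic amino acid transporter, had 0 UMIs in WT and 40 in cKO, which puts it at least 6.86 higher on the log2 scale if WT is set to 3 counts. Of the tRNA synthetases Aars was closest to 0, at 141 and 171 CPM (0.28), and Cars furthest, at 18.4 and 65.6 CPM (1.84). Stc2 (5 and 48 UMIs), Sesn2 (25 and 35 UMIs) and Cth (6 and 39 UMIs) had few UMIs in WT.

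Of genes outside the list, Cox6a2, the heart and muscle form of a cytochrome oxidase subunit, had 12.6 CPM in WT (10.8 to 14.6) and 825 in cKO (781 to 871), a log2 ratio of 6.03. A Cox6a2 UMI was read in 2.2% of thinned WT and 60.5% of thinned cKO members. T and NK-like cells held it as well, at 271 and 908 CPM, and the other cells at 51.1 and 367 CPM. Angptl6 was at 2.96 and 71.9 CPM (4.59) and Cyb5r1 at 15.3 and 70.6 CPM (2.21). With Trib3, Nupr1, Atf5, Asns, Lcn2, Ddit3 and Mthfd2 these are the 10 highest ratios among genes at 50 CPM or more.

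Growth-related lists lay closer to 0. Of 35 MYC and ribosome biogenesis genes 32 had a ratio above 0, none was at least 2-fold higher and the median was 0.44. In this list 1 gene was at least 2-fold lower, Mxd4 (-1.19, but -0.37 with cells thinned). Npm1, the nucleolar phosphoprotein, stood at 1824 and 2752 CPM (0.59), while Myc itself was at 139 and 163 CPM (0.23). Of 25 translation factors 21 were above 0, 2 at least 2-fold higher, and the median was 0.37. Eif4ebp1, the repressor of cap-binding that mTORC1 switches off, stood at 159 and 391 CPM (1.3) and Eif3c at 274 and 636 CPM (1.22). Of 13 measured genes of the mTORC1 list, which holds inputs and the target Eif4ebp1, 3 were at least 2-fold higher. These were Eif4ebp1 and the inhibitors Sesn2 and Ddit4, and the median of the list was 0.02.

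The list for chaperones and the unfolded protein response of the endoplasmic reticulum was centred on 0. Of 23 genes 12 were above and 11 below 0, none reached 2-fold and the median was 0.01. Hspa5, the chaperone BiP, was at 702 and 679.8 CPM (-0.04, -0.14 to 0.05), Calr at 969.6 and 809 CPM (-0.26) and Herpud1 at 78.7 and 146 CPM (0.9). Xbp1 had a ratio of 0.18 (-0.05 to 0.39) in gated cells and 1.44 in the other cells. Its level in WT was higher in the gated cells, 109.6 CPM, than in the other cells, 60 CPM, and in cKO the order was the reverse, 124 and 163 CPM.

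Of 24 immediate early and NF-kB genes 13 were at least 2-fold lower, 1 at least 2-fold higher, and the median was -1.23, against -2.19 in the other cells. Jun, an AP-1 subunit, had 807 CPM in WT (792 to 822) and 156 in cKO (138 to 177), Fos at 240.2 and 64.3 CPM (-1.89), Jund at 714 and 173 CPM (-2.04) and Dusp1, a phosphatase of MAP kinases, at 162 and 23.3 CPM (-2.78). At equal depth 67.8% of WT and 29.1% of cKO members had a Jun UMI. The chemokines Ccl3 and Ccl4 were at 92.3 and 4.41 CPM (-4.29) and at 98.4 and 11.4 CPM (-3.08). In T and NK-like cells Ccl3 stood at 328 and 58.7 CPM, above the members of either library, and the part of free RNA in the low values was not tested. Dusp6, a target of ERK signalling, was at 15.3 and 35.9 CPM (1.25), but at -0.91 in cells led by Mpo, Elane or Prtn3 and -0.5 with the gate at 100 per 10000. Immediate early genes respond to handling of cells as well as to signals, and their part in the difference between the libraries cannot be told apart from library preparation.

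The 10 lowest ratios among genes at 50 CPM or more also held Wfdc17 (74.8 and 4.41 CPM, -3.98), Hist2h2aa1 (70.8 and 9.46 CPM, -2.86), the regulators of G protein signalling Rgs1 (81.8 and 12.6 CPM, -2.66) and Rgs10 (70.9 and 15.1 CPM, -2.2), Ly86, Jun, Dusp1, Ccl3, Ccl4 and Prss34. Prss34 had 1982 UMIs in WT, all in 18 cells (1.32% of the WT members), and 0 in cKO. With cells thinned, a Prss34 UMI was read in 0.661% of WT members (0.303 to 1.25) and in 0 of 86 cKO members (0 to 4.2%). These intervals overlap, so the missing UMIs in cKO set no limit on the size of the Prss34 ratio. Just below the gate the order of Prss34 was the reverse, with 1.77 CPM for WT against 267 for cKO. The mast cell, basophil and eosinophil list had 6 measured genes, 3 of them at least 2-fold lower, and a median of -0.95, which turned to 0.45 with the gate at 30 per 10000.

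Of 11 measured p53 response genes 4 were at least 2-fold higher (Sesn2, which the ATF4 list also holds, Phlda3, Bbc3 and Ccng1) and 1 at least 2-fold lower, with a median of 0.8. Cdkn1a, the CDK inhibitor p21, stood at 76.8 and 133 CPM (0.8, but -0.52 with the gate at 100 per 10000), Bax, a pro-apoptotic BCL2 protein, at 147 and 277 CPM (0.92), Ccng1 at 15.3 and 51.1 CPM (1.74), Phlda3, an inhibitor of AKT, at 4.34 and 34.1 CPM (2.97) and Bbc3, the BH3 protein PUMA, at 9.54 and 34.7 CPM (1.87). Bbc3 no longer passed 2-fold with cells thinned (0.33), nor did Ccng1 with the gate at 100 per 10000 (0.94). Btg2 was the lower member, at 57 and 20.2 CPM (-1.48), and is also in the immediate early list. Mcl1 and Bcl2, which protect cells from apoptosis, were at 51 and 32.2 CPM (-0.65) and at 65.9 and 43.5 CPM (-0.59).

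Most members of both libraries were called S or G2/M from their transcripts. Thinned to 2000 UMIs, 83% of WT members (80.8 to 84.9) and 76.7% of cKO members (66.4 to 85.2) were called S or G2/M, against 51.9% and 64.1% of the other cells. On all UMIs the order turned, with 87.3% and 92%. G2/M calls took 48.8% (46.1 to 51.5) and 37.2% (27 to 48.3). None of 23 S phase genes reached 2-fold (median -0.02), and of 29 G2 and M phase genes 2 were at least 2-fold lower, Nusap1 (187 and 83.9 CPM, -1.15) and Kif23 (49.7 and 22.1 CPM, -1.15), with a median of -0.26. Nusap1 turned to 0.2 in cells called G1 and Kif23 to 0.1 with cells thinned. Of 14 histone genes 6 were at least 2-fold lower and 13 below 0, with a median of -0.8. Hist1h2ap stood at 1757 and 416 CPM (-2.08). Ccnd1, cyclin D1, was at 9.03 and 46 CPM (2.35) and Ccnd2 at 178 and 327 CPM (0.88).

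Genes of other lineages and of stem cells were also read in the members. The stem list summed to 794 CPM in WT and 649 in cKO members, the early lymphoid list to 919.6 and 542, the dendritic and MHC class II list to 1055 and 621, the megakaryocyte list to 197 and 178, the erythroid list to 179.5 and 173, and the B lineage list to 55.1 and 47.3 CPM. Of 10 early lymphoid genes 4 were at least 2-fold lower with a median of -0.71. These were Satb1 (45.5 and 21.4 CPM), Cd27 (139 and 56.8 CPM) and Cd52 (153 and 63.7 CPM), and Dntt (24.1 and 6.94 CPM), of whose cKO UMIs 81.8% came from 1 cell. Cd27 alone of these stayed at least 2-fold lower under every alternative run, while Dntt was at -0.29 in cells called G1, Satb1 at -0.84 with the gate at 100 per 10000 and Cd52 at -0.85 in cells led by Mpo, Elane or Prtn3. In the other cells the median of this list was -1.39. Of 8 stem and multipotent progenitor genes 1 was at least 2-fold higher (Ly6a) and 1 at least 2-fold lower (Kit), with a median of -0.05. The log2 ratio of Ly6a was 0.47 with the gate at 100 per 10000. Cd34 was at 325 and 235 CPM (-0.47). The erythroid and megakaryocyte lists had 2 measured genes each, and the B lineage and T and NK lists 1 each. Rag1, Pax5, Ms4a1, Cd3e and Cd3g had no UMI in the members of either library. The T and NK gene was Ccl5, with 68.7% of the WT UMIs in 1 cell. Of 4 dendritic and MHC class II genes 1 was at least 2-fold lower (median -0.53).

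Metabolic lists lay near the background. The medians were 0.13 for 17 glycolysis genes, -0.05 for 40 nuclear-encoded respiratory chain genes, 0.13 for 30 proteasome genes, 0.1 for 16 NADPH oxidase and antioxidant genes and 0.03 for 7 sterol and fatty acid genes, and no gene of these lists reached 2-fold. Of 12 mitochondrially encoded genes all were below 0 and 1 at least 2-fold lower (median -0.5), beside a mitochondrial share of 1.99% of UMIs in WT and 1.61% in cKO members. The interferon list of 11 genes had a median of 0.08.

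Trmt6 had 72.3 CPM in the WT and 58 in the cKO members (-0.31, -0.64 to -0.01), and Trmt61a, its catalytic partner, at 20.9 and 30.3 CPM (0.55, 0.06 to 0.98). The direction of Trmt61a turned in cells led by Mpo, Elane or Prtn3 (-0.2) and that of Trmt6 in cells called G1 (0.21). The libraries count 3′ ends, and which part of Trmt6 is deleted is not given in the text of the sources used here. The study's figure of the targeting strategy could not be read, so these values do not check the deletion. Among 7 measured m1A writers, erasers and readers none reached 2-fold (median 0.15).

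Against the other cells of the same library, 91 of 4945 genes were at least 2-fold higher in the gated cells in WT (1.84%) and 161 of 4916 in cKO (3.28%). Cells were gated on these same profiles, so the ratios describe the class. Among genes at 50 CPM or more in the gated cells of that library, the highest in WT, beside Prss34, were Fcgr3, Ms4a3, F13a1, Igsf6, Ly6c2, Alas1, Hdc, Mcpt8 and Anxa3, and in cKO Hp, Igsf6, Ly6c2, Ms4a3, Trem3, Lcn2, Ccl9, Clec12a, Anxa3 and Atp8b4. F13a1 and Cebpe had larger ratios in cKO than most of these, with log2 values of 8.15 and 7.43, but lay below that level.

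The ratios of several genes differed between the gated and the other cells. Hp was at 123 and 55.5 CPM in the members and at 35.7 and 0.176 CPM in the other cells, Cebpe at 24.5 and 0.248 CPM and F13a1 at 17.1 and 0.145 CPM in the other cells. The other WT cells include maturing neutrophils and the cells below the gate, of which the cKO library held few, and the part of this make-up in the differences was not tested. Conversely Hsd17b1 was at 23.4 and 59.9 CPM in the members (1.36) and at 3.81 and 67.4 CPM in the other cells (4.14), and Nt5dc2 at 99.2 and 70.6 CPM (-0.48) against 49.2 and 85.1 CPM (0.79).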

How the data were processed

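Single-cell RNA was measured in 1 WT and 1 cKO library, grouped by the labels. The deposited matrices hold counts of UMIs per gene and barcode, unnormalized, and the authors counted with Cell Ranger 6.0.0 against mm10. The labels and the study's methods name different versions of the reagent kit. The study's limits on genes, mitochondrial and hemoglobin UMIs leave 8763 WT and 9151 cKO cells and are an alternative here.

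Rows of 56 symbols with several identifiers were summed. UMIs were summed over the gated cells, log2 ratios used a prior of 0.5 counts, and intervals were exact: Poisson for CPM, conditional binomial for ratios, Clopper-Pearson for shares (scipy 1.17.1). The ratio and interval were tested on simulated data. Phases were scored with Seurat's gene lists in 24 expression bins, on cells thinned to 2000 UMIs. Doublets were scored against simulated pairs (50 neighbours, 20 components, 1500 genes), marked at 0.8% per 1000 barcodes and kept. Genes at 20 CPM in a library counted as measured.

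Members, 36 gene lists and rules were chosen with earlier results of these data known. Named genes were the 10 highest and lowest ratios at 50 CPM, the 5 largest differences from the other cells each way, the 10 highest in gated over other cells, up to 4 at each end of a list, all measured genes of the myeloid lists, Trmt6 and Trmt61a. Other genes of the ATF4, immediate early, MYC, p53 and endoplasmic reticulum lists, and values by leading protease, were named after their values were seen. Promoters are from RefSeq on GRCm38.p6. TMM factors came from edgeR 4.0.16.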

Additional observations from a re-analysis of the deposited data

How the results depend on the processing

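No paired analysis was possible because each genotype has 1 library and no replicate number, and for the same reason no replicate could be left out. Over all alternatives, 63 of 681 list medians and 209 of 4693 ratios of named genes had the other sign than in the main values, from 17 of 36 lists and 98 of 247 genes, most of them near 0: 3 of those lists and 23 of those genes had a main value of 0.5 or more in size. The erythroid median went from 0.78 to -1.48 in G1 cells, the mast cell, basophil and eosinophil median from -0.95 to 0.45 with a limit of 30, and Fcgr3 from -0.61 to 1.47 and Cebpe from -0.34 to 1.49 in cells at 50 to under 100. In every alternative the monocyte arm (-1.93 to -0.68), the ATF4 list (1.23 to 1.79) and the immediate early list (-1.93 to -0.95) kept their direction, and the neutrophil arm (-0.1 to 1.26) did not.

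With a limit of 30 per 10000 the shares were 28.1% and 2.21%, the neutrophil arm's median was -0.1, the immediate early median -1.85 and Prss34 turned to 1.88. With a limit of 100 they were 7.74% and 0.271% (ratio 28.5), the neutrophil median 0.84, the ATF4 median 1.23 and Dusp6 -0.5. In cells at 50 to under 100, 188 genes were higher and 243 lower, the neutrophil median was 1.26, Prg2 0.01, Wfdc21 -1.76, and 78.6% of WT cells were called S or G2/M. In G1 cells the counts were 393 and 412, the neutrophil, monocyte and ATF4 medians -0.03, -1.08 and 1.79, Cpa3 0.07, Nusap1 0.2 and Wfdc21 -0.5. Thinned to 2000 UMIs, the shares were 17.5% and 1.23%, the counts 576 and 393, the monocyte median -1.2, and Cpa3 and Kif23 0.1 each. Cpa3 was 0.06 with each cell scaled before averaging. With a minimum of 10 CPM the counts were 200 and 257, and with 50 CPM 62 and 70, with a neutrophil median of -0.01. Wfdc21 was -0.42 under the study's limits, and without the maturing limit it was -0.71 and the specific granule median -0.15. Calls of S or G2/M were 80% of WT at 1000 UMIs, and 87.3% and 92% on all UMIs.

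Alternatives by leading protease, and without cells rich in mast cell genes, were chosen after seeing the data. In cells led by Mpo, Elane or Prtn3 the cKO share was 0.369% (ratio 40.3), the neutrophil and monocyte medians 0.98 and -1.15, and Dusp6 -0.91. In cells led by Ctsg the shares were 0.601% and 0.575% (ratio 1.05), the counts 377 and 527, the neutrophil, monocyte, ATF4 and immediate early medians 0.93, -0.68, 1.79 and -1.93, F13a1 0.66, Slpi 0.2, Hbb-bt -0.18 and Wfdc21 -2.79. Fewer cells give more low sums, and so larger counts of genes past 2-fold, by construction; the cause of the other shifts was not tested. With 87 cKO cells and 1 library per genotype, counting error is the only error that could be measured, and no value separates genotype from library.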

Other observations

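Cells just below the gate, at 20 to under 50 protease UMIs per 10000, numbered 2533 in WT and 324 in cKO. Several genes of the members already stood apart there. Irf8 was at 179 CPM in WT and 23.9 in cKO, Trem3 at 2.17 and 30.3 CPM, Lcn2 at 3.05 and 37.6 CPM, and Ms4a3 at 28.9 and 53.9 CPM. Jun was at 1704 and 145 CPM. The medians of the lists in these cells were -1.91 for the monocyte arm, -0.11 for the neutrophil arm, 1.83 for the ATF4 list and -2.38 for the immediate early list.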
